A study of Mus musculus with 8 samples.

Results

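The motifs described here are the GC-rich and ETS-type sequences that are typical of promoters: 49 of the 579 transcription factor motifs whose counts were deposited for single nuclei of the mouse embryonic forebrain. They were taken by name, as every motif whose name begins with SP1, SP2, SP3, SP4, SP8, KLF, E2F, TFDP1, EGR, NRF1, YY1, ZBTB33, ELK, ELF, ETS, ETV, ERF, ERG, FEV, FLI, GABPA or NFY. This list of names was set with earlier results of these data known, so it is not independent of them. The 49 comprise 5 SP motifs, 8 KLF motifs, 8 of E2F and its partner TFDP1, 4 EGR motifs, 19 ETS motifs, 2 NFY motifs and 1 motif each for NRF1, YY1 and ZBTB33. All 49 had counts in all 8 samples, the lowest total being 21363 for E2F1, so no motif was lost to a filter on low values.

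Single-nucleus ATAC-seq, which reads the DNA that a transposase can reach in each nucleus, was carried out on untreated wild-type (WT) embryos. The regions were the cortex (CTX) and 3 ganglionic eminences, namely the medial one (MGE), the lateral one (LGE) and the caudal one (CGE), each sampled as replicate 1 and replicate 2. The 3 eminences, jointly GE, were taken at embryonic stage E12.5, as was CTX replicate 1, whereas CTX replicate 2 was of stage E14.5. The labels give no strain and do not say whether the replicates came from separate embryos or litters, so that p-values measure the spread between these samples, which may be technical. In CTX that spread also holds the difference between stages E12.5 and E14.5. Tests of CTX against GE treat these 2 stages as replicates of 1 group.

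SP and KLF zinc-finger proteins bind the GC box, and EGR proteins bind a related GC-rich sequence after a cell is stimulated. ETS proteins, a large family that includes the general activator GABPA and the endothelial factors ERG and FLI1, bind a core with GGAA. E2F proteins with TFDP1 control genes of DNA replication, NFY binds the CCAAT box, NRF1 activates genes of mitochondria and growth, YY1 both activates and represses and helps to join promoters to enhancers, and ZBTB33 (Kaiso) binds CG-containing sequence. Such sites lie close to the start of many genes that are used in every cell, whereas the sites of homeodomain, bHLH and forkhead factors that pattern the forebrain often lie in enhancers.

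To show these letters in place, promoters were searched for the core of each family, on both strands. The windows are the 250 bases before the RefSeq start of a protein-coding gene on GRCm38.p6, written 5′ to 3′ on the strand of the gene. A gene is shown for each of the SP/KLF, ETS, NFY, NRF1, E2F and YY1 letters, and none for EGR or ZBTB33. The window of that gene lay in a peak in all 8 samples and held the letters, and its peaks had the highest mean CPM. CPM here are counts scaled to 1000000 peak counts in a sample. The windows used for this choice also held the first bases of the transcript, and a single chromosome was left out. The capitals mark only the letters named here for each gene, and other searched letters that a window also holds are left in lower case, such as GGGCGG in Ing1, GGGCGG and AGCCAAT in Tomm40 and the other strand of the forkhead letters TGTTTAC in Brd2. In Pou3f3, which encodes a neural POU-domain factor, these are the SP/KLF letters GGGCGG, the ETS letters CCGGAAG and the NFY letters AGCCAAT (the other strand of ATTGGCT). In Ing1, which encodes a chromatin-binding protein, they are the NRF1 letters GCGCATGCG on both strands, overlapping. In Tomm40, which encodes the channel of the mitochondrial outer membrane import complex, they are the E2F letters TTTCCCGC read on the other strand, and in Brd2, which encodes a bromodomain protein, the YY1 letters AAGATGGCG.
Pou3f3, chr1:42695518-42695767, + strand: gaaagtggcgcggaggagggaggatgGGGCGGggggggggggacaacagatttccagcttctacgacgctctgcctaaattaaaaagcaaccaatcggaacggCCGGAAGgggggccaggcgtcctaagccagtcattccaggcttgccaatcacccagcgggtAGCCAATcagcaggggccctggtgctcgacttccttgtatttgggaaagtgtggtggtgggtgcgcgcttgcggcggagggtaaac
Ing1, chr8:11556207-11556456, + strand: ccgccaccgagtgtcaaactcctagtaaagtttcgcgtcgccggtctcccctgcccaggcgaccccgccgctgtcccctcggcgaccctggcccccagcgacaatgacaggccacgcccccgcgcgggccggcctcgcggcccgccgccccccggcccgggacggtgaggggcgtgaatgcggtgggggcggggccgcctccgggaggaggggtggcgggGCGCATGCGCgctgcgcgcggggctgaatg
Tomm40, chr7:19715430-19715679, - strand: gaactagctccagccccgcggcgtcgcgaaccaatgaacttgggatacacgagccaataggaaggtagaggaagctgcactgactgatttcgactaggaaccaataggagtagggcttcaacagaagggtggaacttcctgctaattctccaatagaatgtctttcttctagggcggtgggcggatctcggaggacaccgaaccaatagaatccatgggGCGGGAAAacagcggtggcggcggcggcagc
Brd2, chr17:34119901-34120150, - strand: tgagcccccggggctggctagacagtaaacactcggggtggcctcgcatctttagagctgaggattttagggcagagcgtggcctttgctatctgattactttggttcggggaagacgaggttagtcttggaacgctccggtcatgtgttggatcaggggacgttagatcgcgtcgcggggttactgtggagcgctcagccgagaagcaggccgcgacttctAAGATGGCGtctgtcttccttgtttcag

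The E2F, NRF1 and YY1 letters began 31, 30 and 28 bases before the start of Tomm40, Ing1 and Brd2, while the NFY, ETS and SP/KLF letters began 86, 147 and 224 bases before that of Pou3f3. The 4 windows held 60.8% (Pou3f3), 77.6% (Ing1), 55.2% (Tomm40) and 56.4% (Brd2) G and C. The peak over Ing1 took 168 and 229 CPM in CTX replicates 1 and 2, 270.2 and 252 in MGE, 245 and 264 in LGE, and 216 and 255 in CGE. The peak over Brd2 took 98.2 and 137 CPM in CTX, 201 and 175 in MGE, 144 and 183 in LGE, and 114 and 167 in CGE. The peak over Tomm40 took 99.03 and 152 CPM in CTX, 139.8 and 167 in MGE, 147 and 173 in LGE, and 129.5 and 177 in CGE. In these 3 peaks CTX replicate 1 was the lowest sample and CTX replicate 2 lay above CGE replicate 1, and at Tomm40 also above replicate 1 of MGE and LGE. The peak over Pou3f3 took 280.1 and 259.9 CPM in CTX, 490.2 and 404 in MGE, 278 and 493 in LGE, and 343 and 401 in CGE, with CTX replicate 2 lowest and CTX replicate 1 just above LGE replicate 1. Peak width differed much between these genes, from 1809 to 1991 bases at Tomm40 and from 16867 to 37465 bases at Pou3f3, so that a high count at Pou3f3 belongs to a long region.

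Among 21262 promoter windows of protein-coding genes (here with the first bases of the transcript), GGGCGG stood in 46.2%, the ETS letters in 11.6%, ATTGGCT in 9.27%, the NRF1 letters in 2.35%, the E2F letters TTTGGCGC or TTTCCCGC in 2.02%, the YY1 letters in 1.83%, the ZBTB33 letters TCTCGCGAG in 0.964% and the EGR letters GCGTGGGCG in 0.828%. Windows lying within a peak in all 8 samples made up 59.6% of all windows. That share was 89.1% of windows with GGGCGG against 34.3% of those without, 90.8% against 55.5% for the ETS letters, and 95.9% against 58.9% for the YY1 letters. It was lower with the homeodomain letters TAATTA (30.0% against 61.0%) and with the forkhead letters TGTTTAC (43.7% against 60.1%). A match is a stretch of letters and not a bound site, and these letters are simpler than the matrices behind the deposited counts.

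The letters were then looked for in the peaks themselves, where a promoter peak is a peak within 1000 bp of a GENCODE start site of a protein-coding gene. Promoter peaks held GGGCGG 4.17 to 5.20 times as often as other peaks over the 8 samples, the ETS letters 6.10 to 7.36 times, the E2F letters 6.66 to 7.87 times, the NRF1 letters 9.84 to 12.3 times, the YY1 letters 10.5 to 12.52 times, the EGR letters 13.7 to 19.9 times and the ZBTB33 letters 44.9 to 66.1 times as often. For the NFY letters it was 1.87 to 2.19 times, for the bHLH letters CAGCTG 1.43 to 1.62 times, for the forkhead letters 1.51 to 1.67 times and for the homeodomain letters 0.867 to 1.01 times. Promoter peaks were longer than other peaks, with medians of 1455 to 1628 bases against 498 to 580, and longer peaks hold more letters of any kind. A window of 500 bp around the middle of each peak was therefore read too. It runs past the ends of any shorter peak, as many other peaks were, and then holds DNA outside the peak. In this window the ratios stayed above 1 for GGGCGG (4.33 to 5.54), ETS (4.92 to 5.51), E2F (3.62 to 4.37), NRF1 (8.10 to 9.72), YY1 (7.87 to 9.28), EGR (10.5 to 13.3) and ZBTB33 (47.3 to 68.8). There the NFY letters lay at 0.938 to 1.13 times, on both sides of an even split. The bHLH (0.822 to 0.946), forkhead (0.481 to 0.557) and homeodomain letters (0.246 to 0.336) were rarer in the windows of promoter peaks. Over whole peaks, of all counts in peaks with the ZBTB33 letters, 96.1% to 97.1% lay in promoter peaks, against 68.0% to 76.8% for GGGCGG and 51.2% to 67.8% for ATTGGCT.

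**Figure D1:**
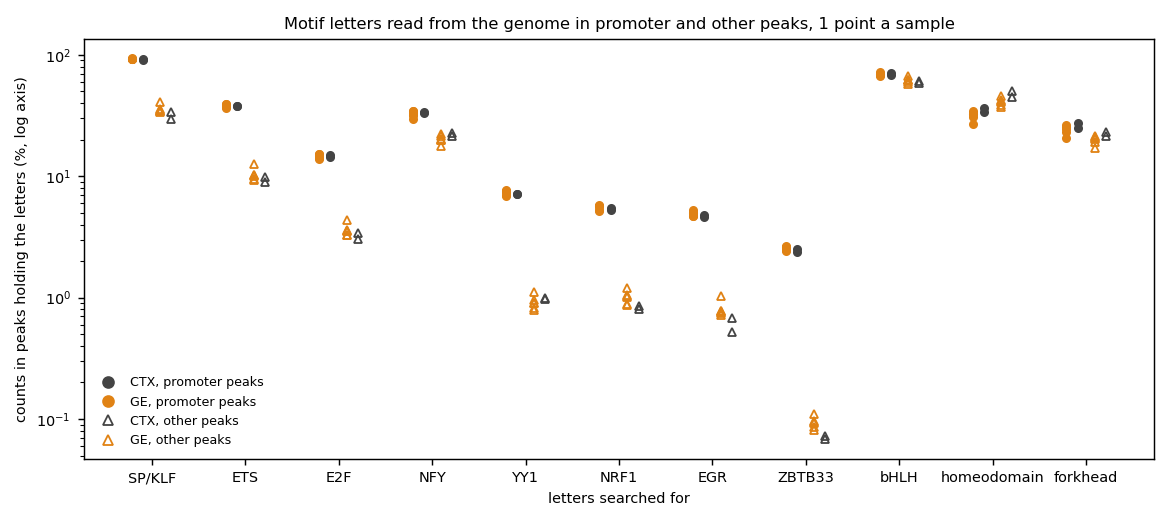
Counts in peaks that hold the letters of each family anywhere in the peak (percent, log axis), in promoter peaks (filled circles) and other peaks (open triangles), 1 point a sample, CTX dark and GE orange. The families of promoter motifs lie higher in promoter peaks, by most for ZBTB33, while bHLH, homeodomain and forkhead letters lie at like levels in both when whole peaks are read.

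Against this background, the share of counts in promoter peaks differed between the regions. It was 41.2% and 48.7% in CTX replicates 1 and 2, 57.4% and 53.6% in MGE, 53.9% and 55.8% in LGE, and 50.7% and 53.5% in CGE. Both CTX samples lay below all 6 GE samples, 45.0% ± 5.35 (SD, n = 2) against 54.1% ± 2.28 (SD, n = 6). The difference of -9.19 percentage points had an exact two-sided permutation p of 0.0357, the smallest that 28 choices of 2 from 8 samples can give. Permuted within replicate numbers, the exact p was 0.0625, the smallest that those 16 choices can give. Over regions with a peak in all 8 samples the difference was -4.63 points with an exact permutation p of 0.0714, CTX replicate 2 (55.4%) lying above CGE replicate 1 (55.2%). The difference was -5.40 points without CTX replicate 1 and -13.0 without CTX replicate 2, where no p below 0.143 can be reached in this exact test.

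The 49 motifs together held 9.02% and 9.34% of all motif counts in CTX, 9.78% and 11.3% in MGE, 10.0% and 10.5% in LGE, and 10.0% and 10.99% in CGE. Both CTX samples thus lay below all GE samples, at 9.18% ± 0.226 (SD, n = 2) against 10.5% ± 0.620 (SD, n = 6), a difference of -1.27 percentage points. Within replicate 1, all labelled E12.5, CTX minus GE was -0.926 percentage points, and within replicate 2 it was -1.62. The order of the GE samples was not that of their promoter shares: MGE replicate 1 had the highest promoter share of all samples and the lowest share of these motifs among the GE samples. In all 4 regions replicate 2 lay above replicate 1. Motif by motif, replicate 2 lay above replicate 1 in all 3 eminences in 18 of the 49, beside 21.8% of all motifs, and below it in 9, beside 21.1%. The share of odd numbers among the entries of the peak matrix was 9.54% to 10.4% for replicate 1 and 5.17% to 5.85% for replicate 2, and its part in the motif counts was not tested.

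**Figure D2:**
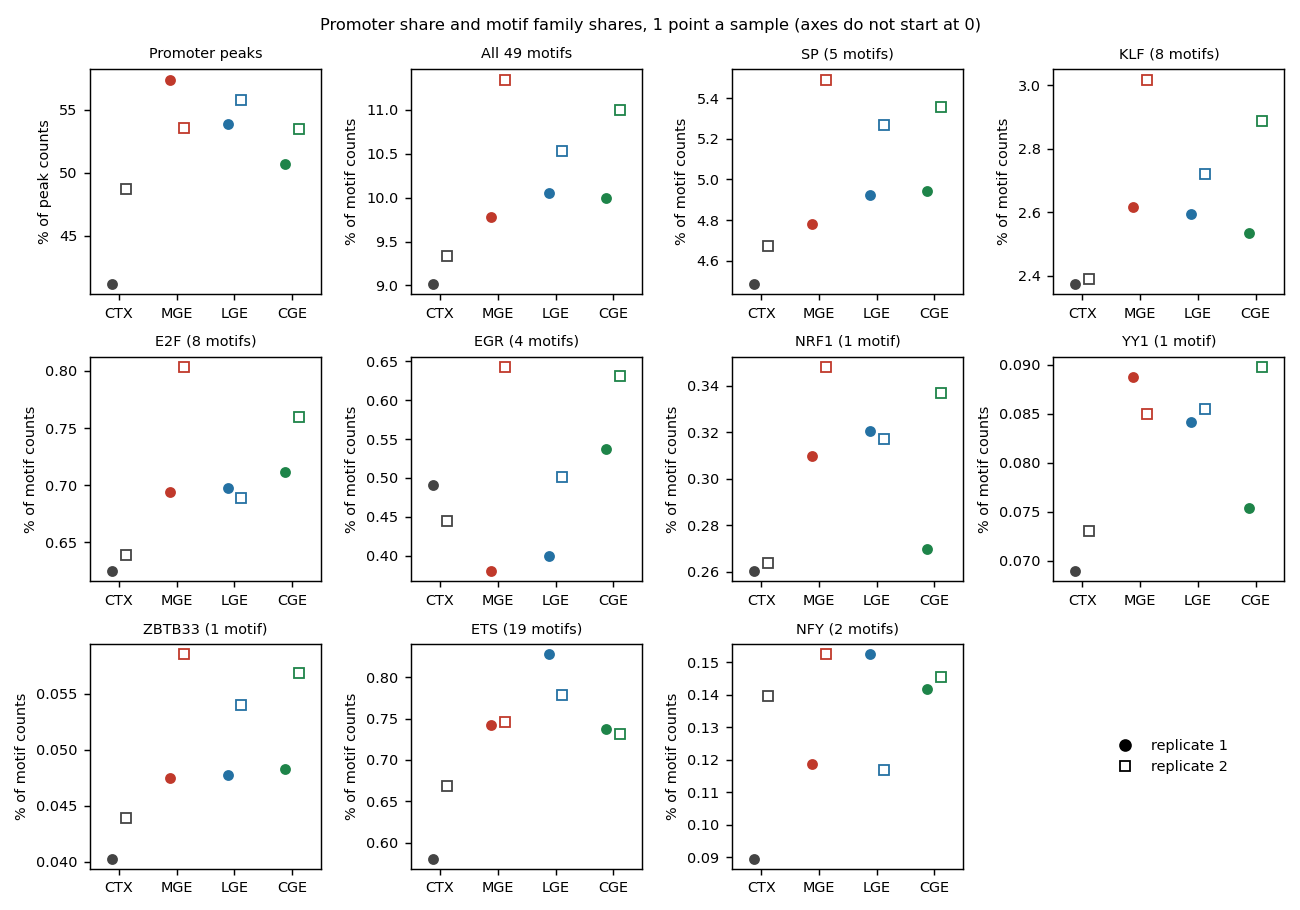
Share of peak counts in promoter peaks (percent) and share of motif counts in all 49 motifs and in each family (percent), 1 point a sample, replicate 1 filled and replicate 2 open, with axes that do not start at 0. CTX lies below every GE sample for promoter peaks, all 49 motifs and 7 families. For EGR both CTX samples lie among GE, and for NFY CTX replicate 1 lies below GE and CTX replicate 2 among them.

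By family, 7 of 9 had both CTX samples below all GE samples. SP motifs, the largest family by counts, held 4.49% and 4.67% of motif counts in CTX and 4.78% to 5.49% in GE. The KLF motifs held 2.37% and 2.39% in CTX against 2.53% to 3.02%, the E2F motifs 0.625% and 0.639% against 0.689% to 0.804%, and the ETS motifs 0.581% and 0.668% against 0.731% to 0.828%. NRF1 held 0.260% and 0.264% in CTX against 0.270% to 0.348%, YY1 0.0689% and 0.0731% against 0.0754% to 0.0898%, and ZBTB33 0.0403% and 0.0439% against 0.0475% to 0.0585%. The EGR motifs, at 0.491% and 0.444% in CTX, lay inside the GE range of 0.380% to 0.643%, and the NFY motifs, at 0.0895% and 0.140%, overlapped the GE range of 0.117% to 0.153%.

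These shares depend on what they are set against. A count in a peak enters the row of every motif found in that peak, and the motif counts of a sample came to 23.9 to 29.7 times its peak counts. Set against peak counts instead, the 49 motifs gave 249 and 262 motif counts per 100 peak counts in CTX, 271 and 326 in MGE, 240.2 and 280.2 in LGE, and 265 and 326 in CGE. LGE replicate 1, which had the fewest motif counts per peak count, then lay below both CTX samples. On this scale CTX and GE overlapped in 8 of the 9 families, the exception being ETS, with 16.1 and 18.7 counts per 100 peak counts in CTX against 19.5 to 21.7 in GE. Within each replicate number, CTX lay below all 3 eminences also for YY1 (CTX minus GE -0.249 and -0.410) and ZBTB33 (-0.131 and -0.370). The remaining families lay among the eminences in 1 replicate number.

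Levels within the families spanned a wide range. In the following, CPM are counts scaled to 1000000 motif counts in a sample, and folds are fitted log2 differences with standard error (SE), from edgeR's quasi-likelihood test with Benjamini-Hochberg adjustment over 579 motifs. SP2, the most frequent of the SP motifs, took 15562 and 16835 CPM in CTX, 17942 and 18574 in MGE, 18761 and 19268 in LGE, and 18258 and 18098 in CGE. Both CTX samples lay below all GE samples, with a log2 fold of -0.17 ± 0.05 (SE) and an adjusted edgeR p of 0.154. KLF5, the leading KLF motif, took 7429.6 and 7996 CPM in CTX, 9492 and 10199.5 in MGE, 9444 and 9218 in LGE, and 8113 and 9031 in CGE, again with CTX lowest (log2 fold -0.23 ± 0.07, adjusted edgeR p 0.143). Here CGE replicate 1 lay nearest to CTX.

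E2F6, a repressor of the E2F family, took 2640.4 and 2949.6 CPM in CTX, 2841 and 3389.5 in MGE, 2973 and 2963 in LGE, and 3146 and 3134 in CGE. CTX replicate 2 lay above MGE replicate 1, and the log2 fold was -0.11 ± 0.10 (adjusted edgeR p 0.565). The rarer motif of E2F7, another repressor that acts late in the cycle of cell division, showed the most negative fold of the 49. It took 63.7 and 61.2 CPM in CTX, 103 and 92.8 in MGE, 92.5 and 85.9 in LGE, and 91.1 and 85.1 in CGE. The log2 fold was -0.53 ± 0.09 with an adjusted edgeR p of 0.0632, which did not pass the threshold of 0.05. DESeq2, run as an alternative, called E2F7 at an adjusted p of 5.58e-08.

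EGR3, the leading EGR motif, took 2445 and 2233 CPM in CTX, 2089.5 and 3181 in MGE, 2181 and 2456 in LGE, and 2684 and 3132 in CGE. The replicates of 1 region were as far apart as any regions, and the log2 fold of CTX was -0.13 ± 0.17 (adjusted edgeR p 0.694). In the EGR4 motif the gap was wider, with 1140.0 CPM in MGE replicate 1 and 2381 in MGE replicate 2.

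NRF1 took 2602 and 2638 CPM in CTX, 3096 and 3480.5 in MGE, 3207 and 3169 in LGE, and 2696 and 3369.8 in CGE (log2 fold of CTX -0.25 ± 0.10, adjusted edgeR p 0.227). YY1 took 689 and 731 CPM in CTX, 887 and 849.8 in MGE, 842 and 854 in LGE, and 754 and 898 in CGE (log2 fold -0.23 ± 0.08, adjusted edgeR p 0.187). ZBTB33 took 403 and 439 CPM in CTX, 475 and 585 in MGE, 478 and 539.8 in LGE, and 482 and 569 in CGE (log2 fold -0.28 ± 0.12, adjusted edgeR p 0.238). In each of these 3 motifs both CTX samples lay below all GE samples, and of the CGE samples replicate 1 was the nearer to CTX.

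Among the ETS motifs, ETV5, a factor downstream of FGF signals, had the highest mean level. It took 488 and 567 CPM in CTX, 507 and 602 in MGE, 699.8 and 655 in LGE, and 612 and 606 in CGE. CTX replicate 2 exceeded MGE replicate 1 (log2 fold -0.19 ± 0.11, adjusted edgeR p 0.383). In MGE replicate 1 alone the ETV5 row was identical to the row of the ELK1 motif. ETV6, a repressor, took 276 and 379 CPM in CTX, 446 and 415 in MGE, 491 and 450.0 in LGE, and 422 and 414 in CGE. ERG, a factor known from blood vessels, took 352 and 405 CPM in CTX, 541 and 454 in MGE, 560.3 and 536 in LGE, and 445 and 447 in CGE. CTX did not overlap GE in either, with log2 folds of -0.40 ± 0.13 for ETV6 and -0.36 ± 0.10 for ERG and adjusted edgeR p-values of 0.181 and 0.114. The ERG row differed from the FLI1 row only in MGE replicate 1 and LGE replicate 2, where ERG was higher. FLI1 gave a log2 fold of -0.31 ± 0.10 (adjusted edgeR p 0.181), also without overlap. The level of a motif is a count of its sequence in open peaks and does not say which of the many ETS proteins is present.

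NFYA, a subunit of the CCAAT-binding complex, took 460.2 and 923 CPM in CTX, 661 and 945 in MGE, 1043 and 595 in LGE, and 931 and 917 in CGE. The samples of CTX, of MGE and of LGE were far apart while those of CGE lay near each other (log2 fold of CTX -0.27 ± 0.34, adjusted edgeR p 0.684). The fold turned to 0.15 without CTX replicate 1 and to 0.09 with promoter share as a covariate, and was -0.86 without CTX replicate 2. The motif of its partner NFYB was steadier, at 435 and 474 CPM in CTX and 482 to 579 in GE, although both subunits serve 1 complex. The genome letters ATTGGCT gave no such split, with CTX at 27.2% ± 0.169 (SD, n = 2) of counts and GE at 26.9% ± 1.83 (SD, n = 6).

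Across all 49 motifs, no motif passed an adjusted p of 0.05 in CTX against GE, where edgeR called 0.0% of the 579. At an unadjusted p under 0.05, edgeR gave 20 of the 49, all lower in CTX, beside 9.5% of all motifs that were lower and 21.8% in either direction. Without CTX replicate 1 it was 2 of the 49 (48 of all 579), in a fit where the 1 CTX sample left is assumed to vary like the other groups. It was 11 (91 of 579) without LGE replicate 1, 11 (98 of 579) without CGE replicate 1, 10 (85 of 579) without CGE replicate 2 and 5 (73 of 579) with peak counts as library size. Both CTX samples lay below all GE samples in 25 of 49, against 15.7% of all motifs, and above all GE samples in 0 of 49, against 10.7%. Of the 25, 14 were ETS motifs. The median log2 fold of the 49 was -0.20, beside -0.04 for all 579 motifs, and 48 were below 0, as were 331 of the 579. Klf1, the motif of a factor of red blood cells, was the exception at 0.04. With the promoter share of each sample as a covariate the median of the 49 was -0.17 and 2 had an unadjusted p under 0.05 by edgeR, beside a median of -0.04 and 38 motifs (6.56%) over all 579. Both CTX samples had lower promoter shares than all GE samples, so this fit cannot tell promoter share and region apart. In replicate 1, CTX lay below all 3 eminences in 33 of the 49, beside 37.1% of all motifs, and in replicate 2 in 45, beside 41.8%. CTX lay above all 3 in one replicate number and below all 3 in the other in 3 of the 49, beside 13.3%. DESeq2 called 82 of 579 motifs (14.2%), of which 7 were among the 49, all lower in CTX: E2F7, KLF16, ERG, FLI1, ELF4, ETV2 and ETV3, while 3.97% of all motifs were called lower.

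**Figure D3:**
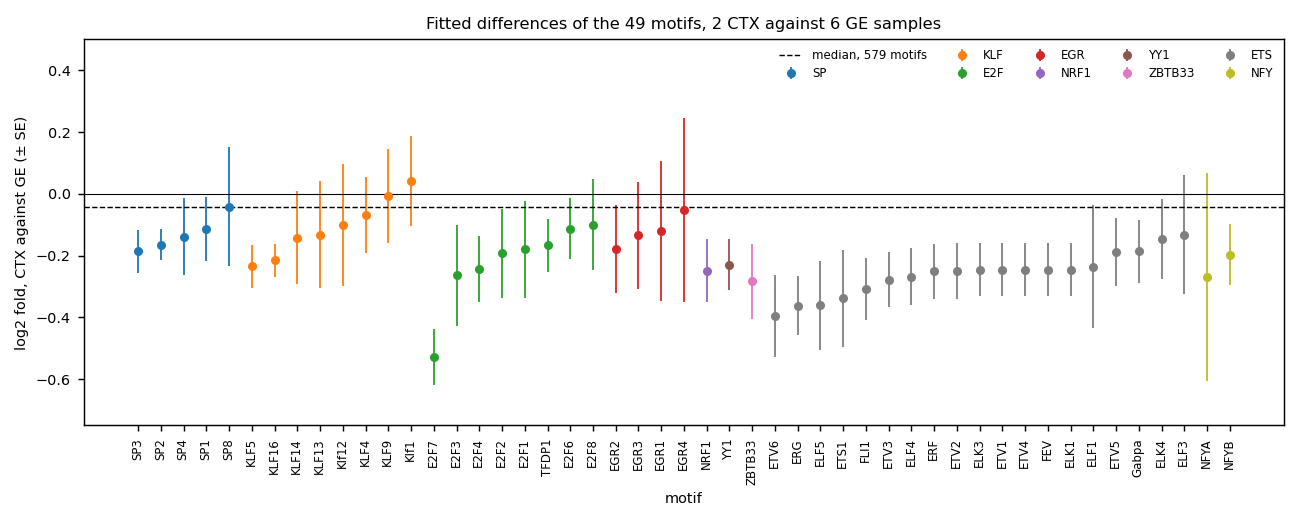
Fitted log2 folds of the 49 motifs in 2 CTX against 6 GE samples, with bars of 1 SE, ordered by family and then by fold, with the median of all 579 motifs as a dashed line. All but Klf1 lie below 0, E2F7 is lowest, and the bars of EGR4 and NFYA are among the longest.

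The 49 rows are not 49 separate measurements. The rows of ELK1, ELK3, ETV1, ETV4 and FEV held the same count in every nucleus of all 8 samples, so that the 49 motifs comprise 45 distinct rows. Other pairs were the same in some samples only. ERG and FLI1 had identical counts in every nucleus of 6 samples, and differed in MGE replicate 1 (541 against 486 CPM) and LGE replicate 2 (536 against 476 CPM). ETV5 was identical to the ELK1 row in MGE replicate 1 alone, and ERF in LGE replicate 1 alone, while elsewhere the rows differed, as with 699.8 CPM for ETV5 against 532 for ELK1 in LGE replicate 1. The matches behind a motif were therefore not drawn alike in every sample, which touches each comparison of motif rows, and its part in them was not tested. With identical rows counted once, the share of the motifs in CTX minus GE was -1.25 percentage points.

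The letters read from the genome are the same in every sample, although the peaks in which they were sought were called for each sample and differ in number and width. Peaks with GGGCGG took 54.9% and 62.3% of counts in CTX, 71.0% and 65.9% in MGE, 65.4% and 67.6% in LGE, and 63.2% and 65.9% in CGE. MGE replicate 1, the sample with the highest promoter share, was the highest here. Within promoter peaks alone GGGCGG took 90.7% and 92.2% in CTX against 91.8% to 93.2% in GE, and CTX overlapped GE, as it did there for all 8 sets of promoter letters. In other peaks it took 29.8% and 33.8% in CTX against 33.8% to 41.1% in GE, where CTX replicate 2 lay just under the lowest GE sample. There the NRF1, ZBTB33 and EGR letters too did not overlap between CTX and GE, while the ETS, E2F, NFY and YY1 letters did.

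Weighting promoter and other peaks alike in every sample, at the mean promoter share of 51.8%, brought the CTX minus GE difference for GGGCGG from -7.93 to -2.49 percentage points, for the ETS letters from -3.25 to -0.637, for the E2F letters from -1.25 to -0.208 and for the NRF1 letters from -0.596 to -0.180. The YY1 letters went from -0.674 to -0.104, the EGR letters from -0.607 to -0.227, the ZBTB33 letters from -0.287 to -0.0697 and the bHLH letters from -1.66 to -0.785. Of the letters higher in CTX, homeodomain went from 5.62 to 4.72, while NFY went from 0.243 up to 1.31 and forkhead from 1.76 up to 2.15. This weighting was chosen after the values were seen and is given without a test.

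Among the eminences, no motif of the 49 passed an adjusted p of 0.05 in any of the 3 contrasts, and edgeR called 0.0% of all motifs in each. At an unadjusted p under 0.05, edgeR gave 0 of the 49 for MGE and LGE (5.01% of all motifs), 0 for MGE and CGE (2.07%) and 2 for LGE and CGE (9.84%), namely ERG and E2F2. Of the LGE and CGE samples, the ERG and FLI1 rows differed only in LGE replicate 2. The unadjusted edgeR p for LGE and CGE was 0.0290 for ERG and 0.0957 for FLI1. These counts turned on single samples, in fits where the 1 sample left of a region is assumed to vary like the others. For MGE and LGE it was 4 of the 49 (56 of all 579) without MGE replicate 1, 2 (45) without MGE replicate 2, 2 (61) without LGE replicate 2 and 1 (25) without either CTX sample, while without LGE replicate 1 it was 0 (6). For MGE and CGE it was 8 (70) without MGE replicate 2, 2 (7) without MGE replicate 1 and 1 (9) without CGE replicate 2. For LGE and CGE it was 3 (91) without LGE replicate 2, 3 without MGE replicate 1 (60) or MGE replicate 2 (59), and 0 without LGE replicate 1 (13), CGE replicate 1 (58) or CGE replicate 2 (14). The share of the 49 in MGE minus the mean of LGE and CGE was 0.168 percentage points, and it depended on the MGE sample used: 0.953 without MGE replicate 1 and -0.616 without MGE replicate 2.

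Of the 49, 6 lay lower in both MGE samples than in both LGE samples (12.4% of all motifs did so) and 5 lay higher (23.0%). The direction depended on the scaling: the log2 fold was below 0 in 25 of the 49 (median -0.02), but in 5 (median 0.16) with peak counts as library size, where the median of all motifs was 0.21. The lower ones with the largest folds were ETS motifs, ELF5 at -0.37 ± 0.17, ETV5 at -0.32 ± 0.13 and ETS1 at -0.27 ± 0.19 (adjusted edgeR p 0.740 for each). The ELF5 motif took 168 and 159 CPM in MGE and 239 and 173 in LGE, so that LGE replicate 1 stood apart. ETV5 took 507 and 602 CPM in MGE and 699.8 and 655 in LGE, and ETS1 458 and 513 against 594 and 552. In both, MGE replicate 1 lay farther from LGE than MGE replicate 2 did. In MGE replicate 1 the ETV5 row was that of ELK1. The higher ones with the largest folds were of the E2F family, E2F8 (149.9 and 175 against 149 and 138 CPM), E2F4 (2555 and 2979 against 2431 and 2474) and E2F7 (103 and 92.8 against 92.5 and 85.9), with log2 folds of 0.14 ± 0.18, 0.14 ± 0.13 and 0.10 ± 0.11.

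Against CGE, 4 of 49 lay lower in MGE (13.3% of all motifs) and 10 lay higher (20.4%). ETV5, ELF4 and ETS1 were lower, with log2 folds of -0.14 ± 0.13, -0.13 ± 0.11 and -0.11 ± 0.19, and without MGE replicate 1 the fold was 0.01 for both ETV5 and ETS1. E2F3 (94.9 and 81.4 CPM in MGE, 69.3 and 74.8 in CGE), E2F8 (133 and 141 CPM in CGE) and KLF5 were higher, with log2 folds of 0.28 ± 0.20, 0.24 ± 0.18 and 0.19 ± 0.08. All 6 had an adjusted edgeR p of 0.962 or 0.966.

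In LGE against CGE, 19 of the 49 lay higher in LGE (28.3% of all motifs), 14 of them ETS motifs, of which several share their counts as described, and 6 lay lower (30.7%). Here too the direction depended on the scaling: the log2 fold was below 0 in 21 of the 49 (median 0.06), but in 42 (median -0.12) with peak counts as library size, where the median of all motifs was -0.17. Per 100 peak counts the ETS motifs overlapped, with 19.8 and 20.7 in LGE and 19.5 and 21.7 in CGE. E2F2, E2F3 and ELF5 were higher, with log2 folds of 0.44 ± 0.17, 0.43 ± 0.20 and 0.36 ± 0.17 and adjusted edgeR p-values of 0.457, 0.479 and 0.494. E2F2 took 73.5 and 54.6 CPM in LGE and 48.9 and 47.4 in CGE, and ELF5 took 239 and 173 against 162 and 165. In both motifs LGE replicate 1 stood apart, and LGE replicate 2 lay nearer to CGE. EGR4, EGR1 and EGR3 were lower, with log2 folds of -0.47 ± 0.36, -0.45 ± 0.28 and -0.30 ± 0.21 and adjusted edgeR p-values of 0.553, 0.507 and 0.519. EGR1, the motif of an immediate early factor, took 310.1 and 366 CPM in LGE and 431 and 504 in CGE. Because MGE, LGE and CGE samples each serve in several of these contrasts, the contrasts are not separate measurements.

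The share of these motifs and the promoter share were also compared from nucleus to nucleus. Within each sample the share of the 49 motifs in a nucleus rose with the share of its counts in promoter peaks, with a Spearman's rho between 0.691 (CTX replicate 2) and 0.879 (MGE replicate 1) over 3465 to 6845 nuclei. Both shares are computed from the peaks of 1 nucleus, and they share its depth. A motif count is a sum of peak counts, and the letters of these families stood more often in promoter peaks. A rise of 1 share with the other is thus largely built into them. Within each of 3 depth classes of a sample, rho was at least 0.664. When the nuclei of a sample were split into 5 equal classes by promoter share, the share of the motifs rose at every step in all 8 samples, as it did for each of the 9 families. From the lowest to the highest class it rose 1.11 to 1.17 times over the samples, by 1.10 to 1.16 times for SP, 1.13 to 1.25 times for ETS, 1.18 to 1.24 times for YY1 and 1.22 to 1.34 times for ZBTB33.

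**Figure D4:**
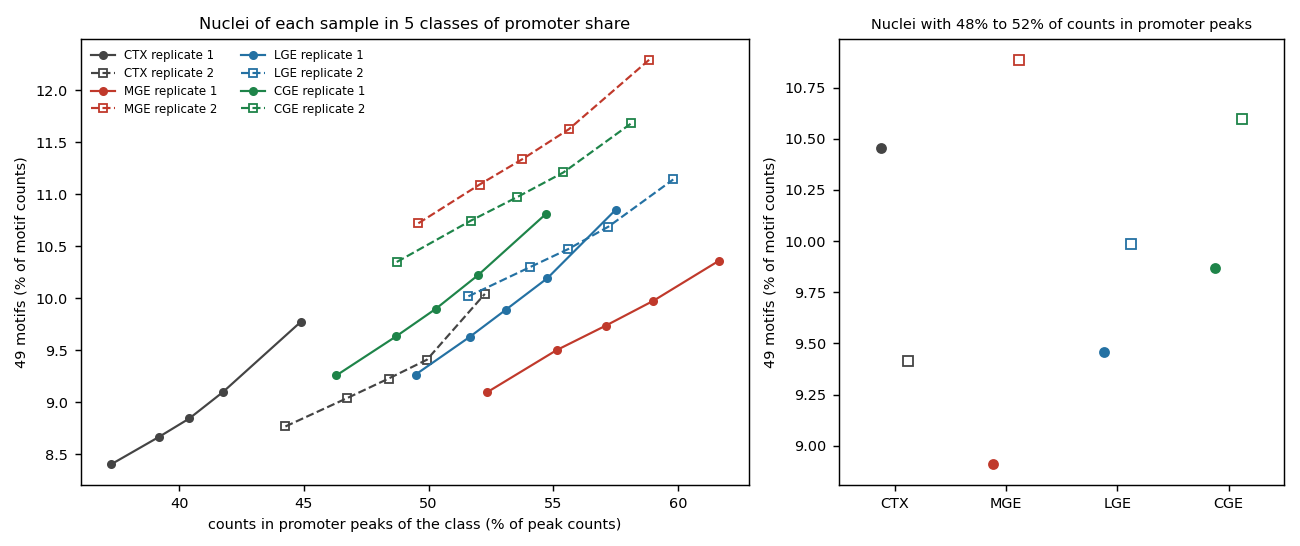
Left, the share of the 49 motifs (percent of motif counts) against the share of counts in promoter peaks (percent) in 5 equal classes of the nuclei of each sample, 1 line a sample, replicate 1 filled and solid, replicate 2 open and dashed. Right, the share of the 49 motifs in nuclei with 48% to 52% of counts in promoter peaks, 1 point a sample. The lines rise in all samples but lie at different heights, and at 48% to 52% CTX replicate 1 lies above, and CTX replicate 2 below, the 3 eminences of the same replicate number.

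Samples did not fall on 1 line, however. Among nuclei with 48% to 52% of their counts in promoter peaks, a range chosen after the data were seen and reached by every sample, the 49 motifs held 10.5% and 9.41% of motif counts in CTX, 8.91% and 10.9% in MGE, 9.46% and 9.98% in LGE, and 9.87% and 10.6% in CGE. CTX and GE overlapped, with means of 9.93% and 9.95%. Within replicate 1 CTX lay above all 3 eminences (CTX minus GE 1.04 percentage points), and within replicate 2 below all of them (-1.08 points), so that the near-equal means join opposite differences. The range took in only 120 nuclei of CTX replicate 1, 2.92% of that sample, against 2158 nuclei of CTX replicate 2. Those 120 lay above the 95th percentile of promoter share in their sample (47.7%). They were shallow, with a median of 10345.5 peak counts against 22209.5 in the whole sample. In MGE replicate 1 the range lay at the other end, below the 25th percentile (54.6%). It held 7.83% of those nuclei, with a median of 9740.5 peak counts against 14700. The ETS motifs alone kept both CTX samples lowest in this range, at 0.671% and 0.673% against 0.677% to 0.780% in GE, with MGE replicate 1 close above.

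Motif by motif, 44 of the 49 had a rho with promoter share above 0 in all 8 samples, which was so for 33.2% of all motifs, and no motif of the 49 was at or below 0 in all. The 5 others were the rare motifs E2F8, ETV2, E2F7 and E2F3, above 0 in 7 samples each, and E2F2, above 0 in 5. The mean rho over samples was 0.77 for SP1 and 0.76 for KLF5, KLF16 and SP2, with a median of 0.753 over the SP family. It was 0.671 for NRF1, 0.523 for YY1 and 0.529 for ZBTB33, with medians of 0.542 for KLF, 0.489 for EGR, 0.424 for NFY, 0.348 for ETS and 0.079 for E2F. E2F6 and E2F4 (0.715 and 0.690) stood apart from the rarer E2F motifs. Over the other 530 motifs the median was -0.030. It was 0.408 for 18 other motifs often met at promoters, such as CREB1 and USF1, a list that also holds CTCF. It was 0.074 for 5 ETS motifs left out by the name rule such as SPI1, and -0.195 for 14 motifs of forebrain enhancer factors such as LHX2 and NEUROD2. Rare motifs are thinly counted in a nucleus, and a low rho there says little.

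**Figure D5:**
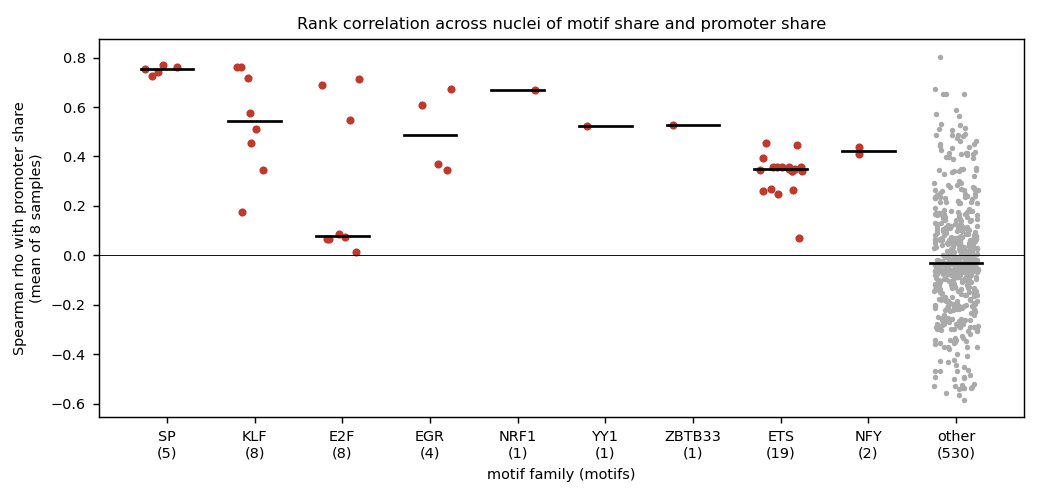
Spearman's rho across nuclei between the share of a motif and the share of counts in promoter peaks, as the mean over 8 samples, 1 point a motif, by family, with the median of each as a bar. SP motifs lie between 0.726 and 0.769, the 530 other motifs centre on -0.030.

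Because ETS factors are prominent in blood vessels, the 1% of nuclei with the highest ETS share in each sample were set beside the rest. They were shallow, with a median of 3772 to 9742 peak counts against 14644 to 22324, and 59.2% to 72.6% of their counts lay in promoter peaks, against 41.1% to 57.4%. Counts in peaks at 8 endothelial genes, among them Cldn5, Kdr, Erg and Fli1, were 0.805 to 1.84 times those of the rest, above 1 in 5 of 8 samples. The endothelial list as a whole took 205 to 271 CPM over the samples and CTX overlapped GE.

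The labels of the regions matched their marker genes in part. Peaks at 8 cortical genes took 978 and 1015 CPM in CTX and 416 to 682 in GE. Both CTX samples lay above all GE samples at Emx1, Eomes, Neurod6 and Neurog2 but not at Emx2, Pax6, Tbr1 and Neurod2, with Neurod2 at 127 and 14.3 CPM in the CTX pair against 9.85 to 19.7 in GE. Of the CTX pair, replicate 1, labelled E12.5, was higher at Eomes, Tbr1, Neurod2 and Neurod6 (101 against 36.3 CPM). Replicate 2, labelled E14.5, was higher at Emx1, Emx2 (301 against 154 CPM), Pax6 and Neurog2. Neurod2 and Neurod6, genes of neurons, were thus higher in the sample labelled younger, and the stage labels were not tested. Peaks at 8 eminence genes, summed by gene, took 349.8 and 476 in CTX and 1072 to 2415 in GE, with both CTX samples below all GE samples at each of these genes but Dlx6. This sum counts a peak over 2 neighbouring genes for each of them, as at Dlx1 and Dlx2 in MGE replicate 1 (509 CPM at each) but not in LGE replicate 1 (326 and 193). The MGE genes were highest in MGE, whereas the 3 LGE genes did not set LGE apart. Together the 3 CGE genes were highest in CGE (717 and 1158 CPM, against at most 676 elsewhere), but singly only Nr2f1 was. Each sample had 3465 to 6845 nuclei, 77387940 to 138873845 peak counts and 103633 to 182638 peaks called for that sample alone. Pairs of samples shared at most 56 barcodes. A sample is a sum over all its nuclei, which were not sorted into cell types. A change in the mix of cell types was thus not separated from a change within a type.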

How the data were processed

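Nuclei of 8 samples were profiled by droplet-based single-nucleus ATAC-seq. Per the labels, reads were processed with Cell Ranger ATAC 1.2.0 on GRCm38 (mm10). The authors deposited, for each sample, its own peaks, raw counts per peak and barcode, and raw counts per motif and barcode. That software scans each sample's peaks against that sample's base composition, so the score a match needs can differ between samples. All deposited barcodes (39253) were kept, and doublets were not removed.

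The counts of all nuclei in a sample were added up, and the sample was the unit of each test. Motif counts were tested with edgeR 4.0.16 (quasi-likelihood, TMM scaling, filterByExpr, 1 model of 4 groups, Benjamini-Hochberg over 579 motifs). CTX was set against the mean of the 3 eminences, and the eminences against each other. The test was tried on simulated counts. DESeq2 1.42.0, limma 3.58.1 with voom, other library sizes, no filter, a replicate block, promoter share as covariate and leaving out each sample were alternatives. Letters were searched in the RefSeq GRCm38.p6 sequence of whole peaks, on both strands.

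In each family the motif with the highest mean CPM was named, and in each contrast, of the motifs whose groups did not overlap, up to 3 in each direction by size of fold. Klf1, NFYB, the motifs DESeq2 called and those with identical rows were named after their values were seen. The motifs and lists were chosen with earlier results of these data known.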

Additional observations from a re-analysis of the deposited data

Results flagged for a closer look

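In 3 of the 49 motifs, CTX lay above all 3 eminences in replicate 1 and below all 3 in replicate 2, and 77 of all 579 motifs (13.3%) lay above all 3 in one replicate number and below all 3 in the other. CTX minus the mean of the eminences was 179 CPM in replicate 1 and -160.0 CPM in replicate 2 for Klf1, 13.0 and -37.8 CPM for E2F8, and 318 and -413 CPM for KLF9. The difference between the replicate numbers was not tested. CTX replicate 1 was of stage E12.5 and CTX replicate 2 of stage E14.5, so that age and replicate number cannot be told apart in CTX.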

How the results depend on the processing

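The lower promoter share of CTX kept its direction in all alternatives. The exact permutation p was 0.0714 over regions with a peak in all 8 samples (-4.63 percentage points), and permuting within replicate numbers, chosen after seeing the data, gave p 0.0625 for the same -9.19 points, leaving out a sample gave -13.0 to -5.40 points, with p 0.143 without either CTX sample, the smallest possible there. The share of the 49 motifs in CTX minus GE moved to -0.0174 percentage points in nuclei with a promoter share of 48% to 52%. That value joins opposite differences, 1.04 points within replicate 1 and -1.08 within replicate 2. The range held only 120 nuclei of CTX replicate 1, 2.92% of that sample. Over all nuclei, leaving out a sample gave -1.43 to -1.10. For MGE minus the mean of LGE and CGE, the ETS motifs alone gave -0.0244 points, and leaving out a sample gave -0.616 to 0.953.

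By edgeR 0 of 579 motifs were called in each contrast. DESeq2 called 82 in CTX against GE (7 of the 49), 8 for MGE and LGE, 4 for MGE and CGE and 4 for LGE and CGE, none of the 49 in the latter 3. Leaving out a sample gave 0 to 5 calls in CTX against GE (5 without CTX replicate 2), 0 to 5 for MGE and LGE (5 without LGE replicate 2), 0 to 1 for MGE and CGE (1 without MGE replicate 2) and 0 to 6 for LGE and CGE (6 without LGE replicate 2), none of the 49, and a region left with 1 sample is assumed to vary like the others. Peak counts as library size shifted the median of all motifs to 0.21 for MGE and LGE and to -0.17 for LGE and CGE (log2). The log2 fold of NFYA in CTX against GE turned to 0.0916 with promoter share as a covariate and ran from -0.863 without CTX replicate 2 to 0.150 without CTX replicate 1. In MGE against CGE, ETV5 ran from -0.268 without MGE replicate 2 to 0.00852 without MGE replicate 1, and ETS1 from -0.187 to 0.00895. DESeq2 called E2F7 and ERG. The causes were not tested.

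With replicate number as a block, 0 motifs were called in each contrast and no call changed. Differences between replicate 2 and replicate 1 correlated at 0.283 to 0.416 between eminences and at -0.454 to -0.243 between CTX and an eminence, so the same-numbered samples of the eminences deviated together and those of CTX did not. The 2 samples of a group limit the precision.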

Other observations

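The motif whose share rose most steadily with promoter share across nuclei was not among the 49. Zfx, a zinc-finger activator encoded on the X chromosome, had a mean Spearman's rho of 0.804 over the 8 samples, above SP1 at 0.769. It was singled out after its values were seen, and the correlation is a description over nuclei that share a library. Of the 20 motifs with the highest mean rho, 14 were among the 49.

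Replicate 2 lay above replicate 1 in MGE, LGE and CGE in 18 of the 49 motifs, beside 126 of all 579 (21.8%), and below it in 9, beside 122 of all 579 (21.1%). All 4 EGR motifs, 5 of the 8 KLF motifs and 3 of the 5 SP motifs were higher in replicate 2 of all 3 eminences, and so were 14 of the 18 other motifs often met at promoters. The ETS motifs were divided, with 3 of 19 higher and 7 of 19 lower. No motif of the SP, KLF or EGR families was lower in replicate 2 of all 3 eminences.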
